A study of Mus musculus with 8 samples.

Results

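The transcriptome of tubuloids that had received only the vehicle, dimethyl sulfoxide (DMSO), was described from the 4 DMSO libraries of a series of 8 libraries. Members were chosen by their titles alone, which gave DMSO 3, DMSO 5, DMSO 15 and DMSO 20. Tubuloids are tubule-like and spherical structures grown between layers of Matrigel, a basement membrane extract, from tubule fragments of whole postnatal mouse kidneys. The study built them to follow the first steps of cyst formation after loss of Pkd2, which encodes polycystin-2, and the other libraries of the series, treated with doxycycline, were not analysed here.

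The genotype of every culture was Pkd2fl/fl Pax8rtTA TetOCre mTmG. In it both copies of Pkd2 can be cut by Cre (TetOCre) once doxycycline activates a transactivator that the Pax8 promoter drives in renal epithelia (Pax8rtTA), and a membrane reporter (mTmG) changes colour in cells that were cut. The vehicle-treated cultures thus carried every allele of the inducible knockout and received no inducer. The labels gave the kidneys as postnatal day 7 to day 10, whereas the methods of the study gave a younger range that ends at day 7. The results of the study named a kidney of postnatal day 7. Cultures received a pulse of glial-derived neurotrophic factor (GDNF) with hepatocyte, epidermal and basic fibroblast growth factors, DMSO was added on day 3 for 3 days, and RNA was extracted on day 7. The study also described globular structures without E-cadherin beside the differentiated tubuloids, and RNA came from pelleted structures freed from the Matrigel. The labels did not say which animals the cultures came from, so the spread given below is the spread between these 4 samples.

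Summed transcript counts were between 63922677 and 94517663 per library. DMSO 20 stood apart: 13243 of the 24063 genes in the files had at least 1 count there, against 17054 to 17875 genes in DMSO 3, DMSO 5 and DMSO 15. Of 12260 genes with at least 100 counts in each of the other 3 libraries, 767 had no count in DMSO 20, whereas the same measure was 0, 0 and 8 genes for DMSO 3, DMSO 5 and DMSO 15. Some genes listed at 0 in DMSO 20 were therefore well counted elsewhere, and results that rest on DMSO 20 are given with and without it. Levels are in TPM, a measure of transcript abundance with the same total in every library. Values are scaled by transcript length and were summed by gene. Genes with several isoforms are overstated in these sums, since reads in shared sequence appeared to be counted for each isoform, which limits every comparison of level between genes below. Where 4 values follow each other, they stand for DMSO 3, DMSO 5, DMSO 15 and DMSO 20 in that order. The typical gene was 0.35 higher on the log2 scale in DMSO 5 and 0.28 higher in DMSO 20 than in DMSO 15, as judged by median-of-ratios scaling, so orders between libraries, which are those of the deposited TPM, can differ after that scaling, and this is said where it turned an order named for a gene.

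Kidney tubules arise from separate sources. Nephron progenitors of the cap mesenchyme form the segments from the podocyte to the distal convoluted tubule, whereas the ureteric bud, whose tips respond to GDNF through the receptor Ret, branches to form the collecting duct. Principal cells of the collecting duct take up sodium and, under vasopressin, water, and intercalated cells secrete acid or base. Tubule cells placed in culture are known to lose transporters of their segment and to gain genes of injury and dedifferentiation.

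At a level of 1 TPM or more, 11147 of 24063 genes (46.3%) were found in all 4 libraries, and 12379 (51.4%) were found in the 3 libraries other than DMSO 20. These shares are the reference for every count of list members at 1 TPM below. Levels of 100 TPM or more in all 4 libraries were reached by 1280 genes and levels of 1000 TPM or more by 48. The median level of the 13690 genes with a mean of at least 1 TPM was 16.7 TPM. Across these genes, Spearman's correlation of TPM was 0.957 between DMSO 3 and DMSO 5 0.926 between DMSO 3 and DMSO 15 and 0.877 between DMSO 5 and DMSO 15, and it was 0.841 to 0.855 between DMSO 20 and each of the others. These values are across genes, which are not independent replicates.

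Spp1, which encodes the secreted phosphoprotein osteopontin, was the most expressed gene in every library. Its level was 169492, 78779, 64759 and 110688 TPM, or 16.9%, 7.88%, 6.48% and 11.1% of all TPM. DMSO 3 was highest and DMSO 15 lowest, whereas DMSO 5 was lowest after scaling. Spp1 lies on chromosome 5 from 104435111 to 104441053 (GRCm38.p6), and the files list 5 RefSeq transcripts of it that share most of their sequence. With a single transcript per gene, Spp1 was again at rank 1. Its share was then 5.58%, 2.40%, 1.95% and 3.51% of the TPM summed over those single transcripts, a smaller total than all TPM.

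The 10 genes with the highest mean level took 21.8%, 11.9%, 13.1% and 16.3% of TPM (15.8% ± 4.41, SD, n = 4). After Spp1 came Tmsb4x, which encodes the actin-binding peptide thymosin beta 4, at 7810.4, 9599, 15519 and 18343 TPM. Tpm1, a tropomyosin of actin filaments, followed at 5870.5, 4769, 11444 and 6674 TPM. The translation factor Eif5a was at 6906, 5630.0, 8280.3 and 6142 TPM. With a single transcript per gene, the mean of Tpm1 was 869 TPM and that of Eif5a 825 TPM, below Ftl1, Clu and Mgp, whereas Tmsb4x, which has 1 transcript, was again at rank 2. DMSO 15 was highest for Tpm1 and Eif5a, and DMSO 20 was highest for Tmsb4x before and DMSO 15 after scaling.

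Ldha, the lactate-producing subunit of lactate dehydrogenase, came next at 6739.6, 2179, 9611 and 1620.1 TPM, and DMSO 3 and DMSO 15 lay above DMSO 5 and DMSO 20. The ferritin chains Fth1 and Ftl1, which store iron, were at 3030.2, 3975, 4790.2 and 6060.0 TPM and 2271, 2465, 4862 and 3159 TPM. Ly6a, the surface antigen Sca-1, was at 8185, 4770.0, 1861 and 2311 TPM, and the tetraspanin Cd63 was at 4351, 3918, 5438 and 3382 TPM. Gnas, which encodes the stimulatory G protein subunit that raises cyclic AMP, was at 3228, 3105, 4791 and 4428 TPM. With a single transcript per gene the mean of Ldha was 1812 TPM, that of Ly6a 729 TPM and that of Gnas 839 TPM. Ly6a was higher in DMSO 3 and DMSO 5 than in the others, whereas Cd63 and Gnas differed by less between libraries.

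The 30 genes with the highest mean also held genes of secreted and matrix proteins. Clu, which encodes the chaperone clusterin, was at 5867, 4558, 665 and 681 TPM. Mgp, an inhibitor of calcification, was at 2242, 1889, 3758 and 3389 TPM, and Igfbp7, an insulin-like growth factor binding protein, was at 3003, 1856, 3345 and 3111 TPM. Sparc, a collagen-binding matrix protein, was at 1748, 948, 4205 and 2235 TPM, and Serpinh1, the collagen chaperone, was at 2690.2, 2026, 4461 and 1946 TPM. Clu was the most uneven of these, with DMSO 3 and DMSO 5 above DMSO 15 and DMSO 20, whereas Sparc ran in the other direction and was lowest in DMSO 5.

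Of the 30 genes, 28 were among the 100 highest genes of each library, and 4 had symbols of ribosomal proteins or of a close homologue (Rpl34, Rpl38, Rps27 and Rps27l). The 84 genes with such symbols took 4.95%, 5.50%, 7.65% and 3.97% of TPM. Ribosomal protein genes, Tmsb4x, Eif5a, Fth1 and Ppia have many near-identical copies in the genome, so their levels are uncertain where reads were split. The order of the top genes depended on how isoforms were handled, since 22 of the 30 had several transcripts and 14 of the 30 were also among the 30 highest with a single transcript per gene.

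**Figure D1:**
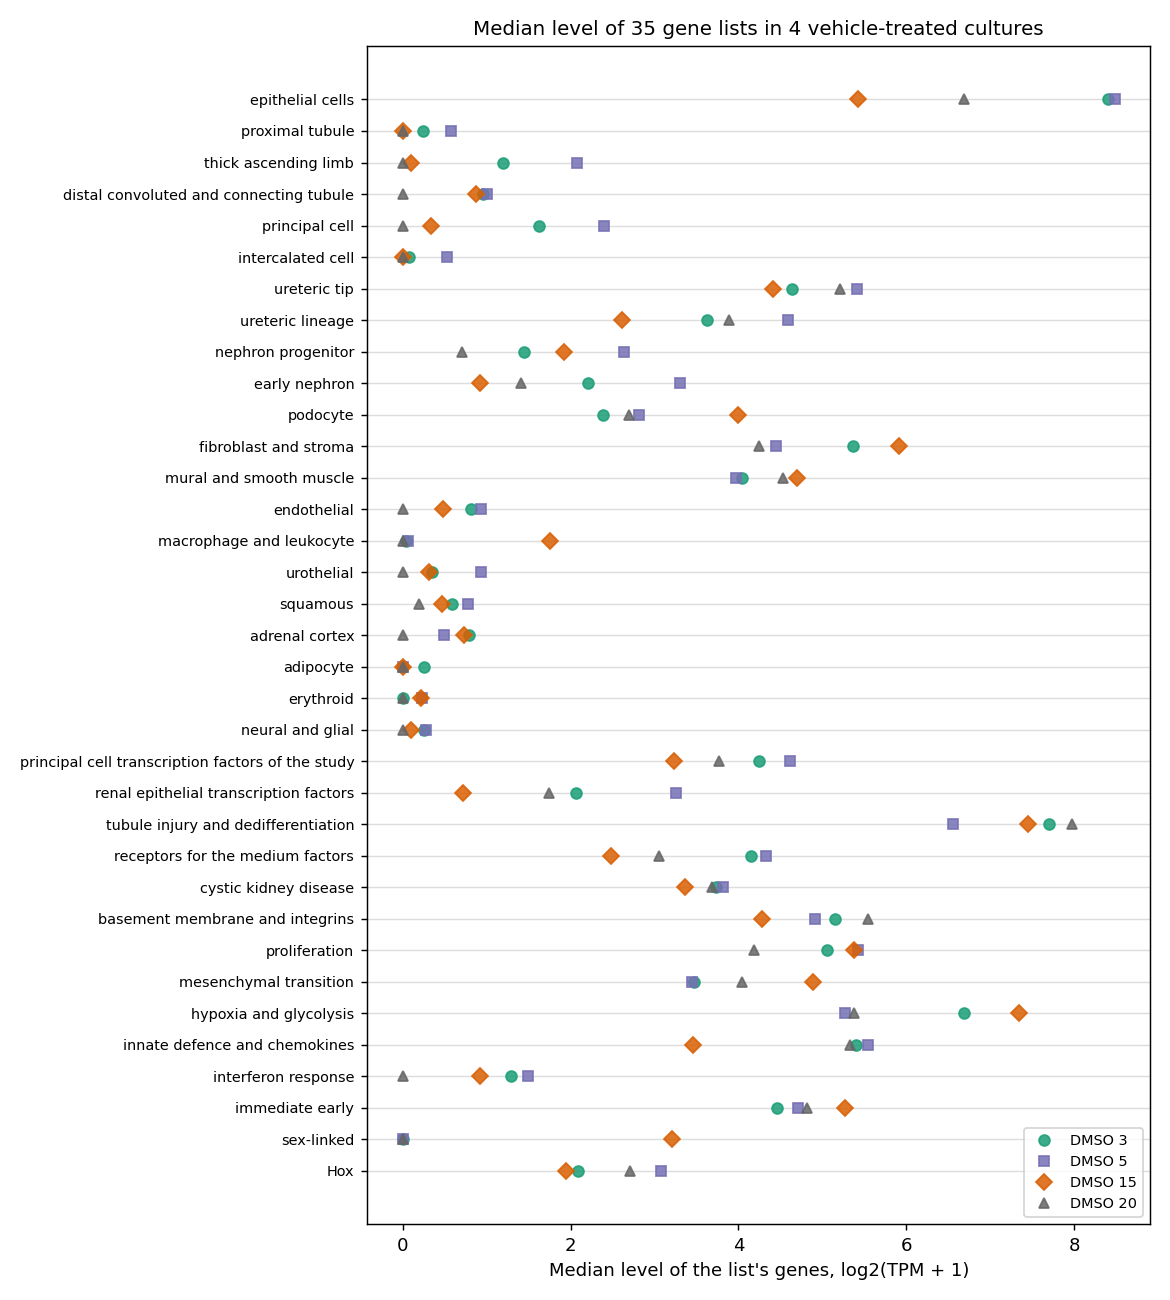
Median level of the genes of 35 lists in each of the 4 vehicle-treated cultures, as log2(TPM + 1) on a linear axis; each symbol is 1 library. Epithelial, injury and ureteric tip lists sit far to the right of the proximal tubule and intercalated cell lists, and the libraries spread widely within the epithelial and hypoxia lists.

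Epithelial genes were expressed in all 4 cultures, at levels that differed between them. Of 12 genes of epithelial cells, 11 reached 1 TPM in all 4 libraries and all 12 did without DMSO 20. Their median was 337, 356, 41.7 and 102 TPM (209 ± 161, SD, n = 4). Krt19, Krt18, Krt8 and Krt7 are keratins of simple epithelia, and Krt19, the highest, was at 826, 634, 207 and 460.5 TPM. Epcam, an epithelial adhesion molecule, was at 389.8, 373, 46.6 and 123 TPM. Cdh1, which encodes E-cadherin, was at 92.6, 96.9, 15.2 and 40.7 TPM, and Cdh16, the kidney-specific cadherin, was at 284, 533, 17.6 and 81.3 TPM. For Krt19, Epcam, Cdh1 and Cdh16, DMSO 15 was lowest and DMSO 20 next, and DMSO 3 and DMSO 5 were above both.

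DMSO 15 was lowest for 10 of the 12 epithelial genes, and for 8 after median-of-ratios scaling, whereas it was lowest before scaling for 30.9% of all genes with a mean of 1 TPM or more. Tjp1, a tight junction scaffold, was the exception in direction, at 26.5, 21.2, 36.9 and 66.4 TPM. Grhl2, a transcription factor of epithelial cells, was the lowest of the list at 5.65, 9.73, 1.28 and 1.35 TPM. Among the 12 genes, 8 lay 4-fold or more apart between the highest and lowest library, a measure taken throughout on TPM + 1, against 22.7% (3109 of 13690) of genes with a mean of 1 TPM or more. The same 8 of 12 was the count without DMSO 20, against 8.39% of genes in those 3 libraries.

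In these bulk samples, fewer cells of a type and less RNA per cell cannot be told apart. This holds for every cell type gene below.

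Proximal tubule genes were low in each library. Of 25 genes, 3 reached 1 TPM in all 4 libraries and 4 in the 3 libraries other than DMSO 20, and 5 had no count in any library. Their median was 0.187, 0.492, 0 and 0 TPM. The genes without a count were Slc34a1, the phosphate cotransporter, Slc22a12, the urate transporter, Slc7a13, Miox and Cyp2e1. By sampling alone a count of 0 allows up to 3 reads per library. In DMSO 20, where well counted genes were missed, it sets no such bound. Lrp2 and Cubn, which encode the endocytic receptors megalin and cubilin, were at 0.0563, 0.0211, 0.0137 and 0 TPM and 0.149, 0.127, 0.0896 and 0 TPM. Hnf4a, a transcription factor of proximal tubule cells, was at 0.368, 0.687, 0 and 0 TPM. These receptors and this factor were thus below 1 TPM in all 4 cultures.

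The proximal tubule genes that were present were few. Abcg2, an efflux transporter, was at 70.8, 63.2, 50.5 and 49.1 TPM and was among the steadier genes of the list. Gatm, an enzyme of creatine synthesis, was at 7.99, 6.30, 13.9 and 25.1 TPM, and Ggt1, which breaks down glutathione, was at 15.2, 14.1, 1.58 and 0 TPM. Slc5a2, the sodium-glucose cotransporter of the early proximal tubule, was at 5.17, 7.79, 6.31 and 23.7 TPM, and Gatm and Slc5a2 were both highest in DMSO 20.

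Genes of the thick ascending limb were found mainly in DMSO 3 and DMSO 5. Of 11 genes, 1 reached 1 TPM in all 4 libraries and 2 in the 3 libraries other than DMSO 20, and the median was 1.28, 3.21, 0.0711 and 0 TPM. Umod, which encodes uromodulin, was at 12.03, 5.82, 0 and 0 TPM. The potassium channel gene Kcnj1 was at 3.76, 14.4, 0 and 0 TPM, and Slc12a1, the sodium-potassium-chloride cotransporter, was at 0.349, 2.84, 0.264 and 0 TPM. The tight junction gene Cldn10, the highest of the list, was at 82.6, 129, 21.1 and 0 TPM. Umod and Kcnj1 had no count in DMSO 15 or DMSO 20, and Cldn10 had none in DMSO 20.

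Of 10 genes of the distal convoluted and connecting tubule, 2 reached 1 TPM in all 4 libraries and 4 without DMSO 20. Calb1, the calcium-binding protein calbindin, was at 24.5, 68.1, 1.11 and 0.0114 TPM, and S100g, another calcium-binding protein, was at 5.94, 25.96, 3.61 and 20.5 TPM. Wnk4, a kinase that regulates salt transport, was at 5.51, 17.9, 2.06 and 9.21 TPM. Slc12a3, the thiazide-sensitive cotransporter that defines the distal convoluted tubule, was at 0.588, 0, 0 and 0 TPM, and Pvalb had no count in any library. DMSO 5 was highest for Calb1, S100g and Wnk4, and Slc12a3 was counted in DMSO 3 alone.

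**Figure D2:**
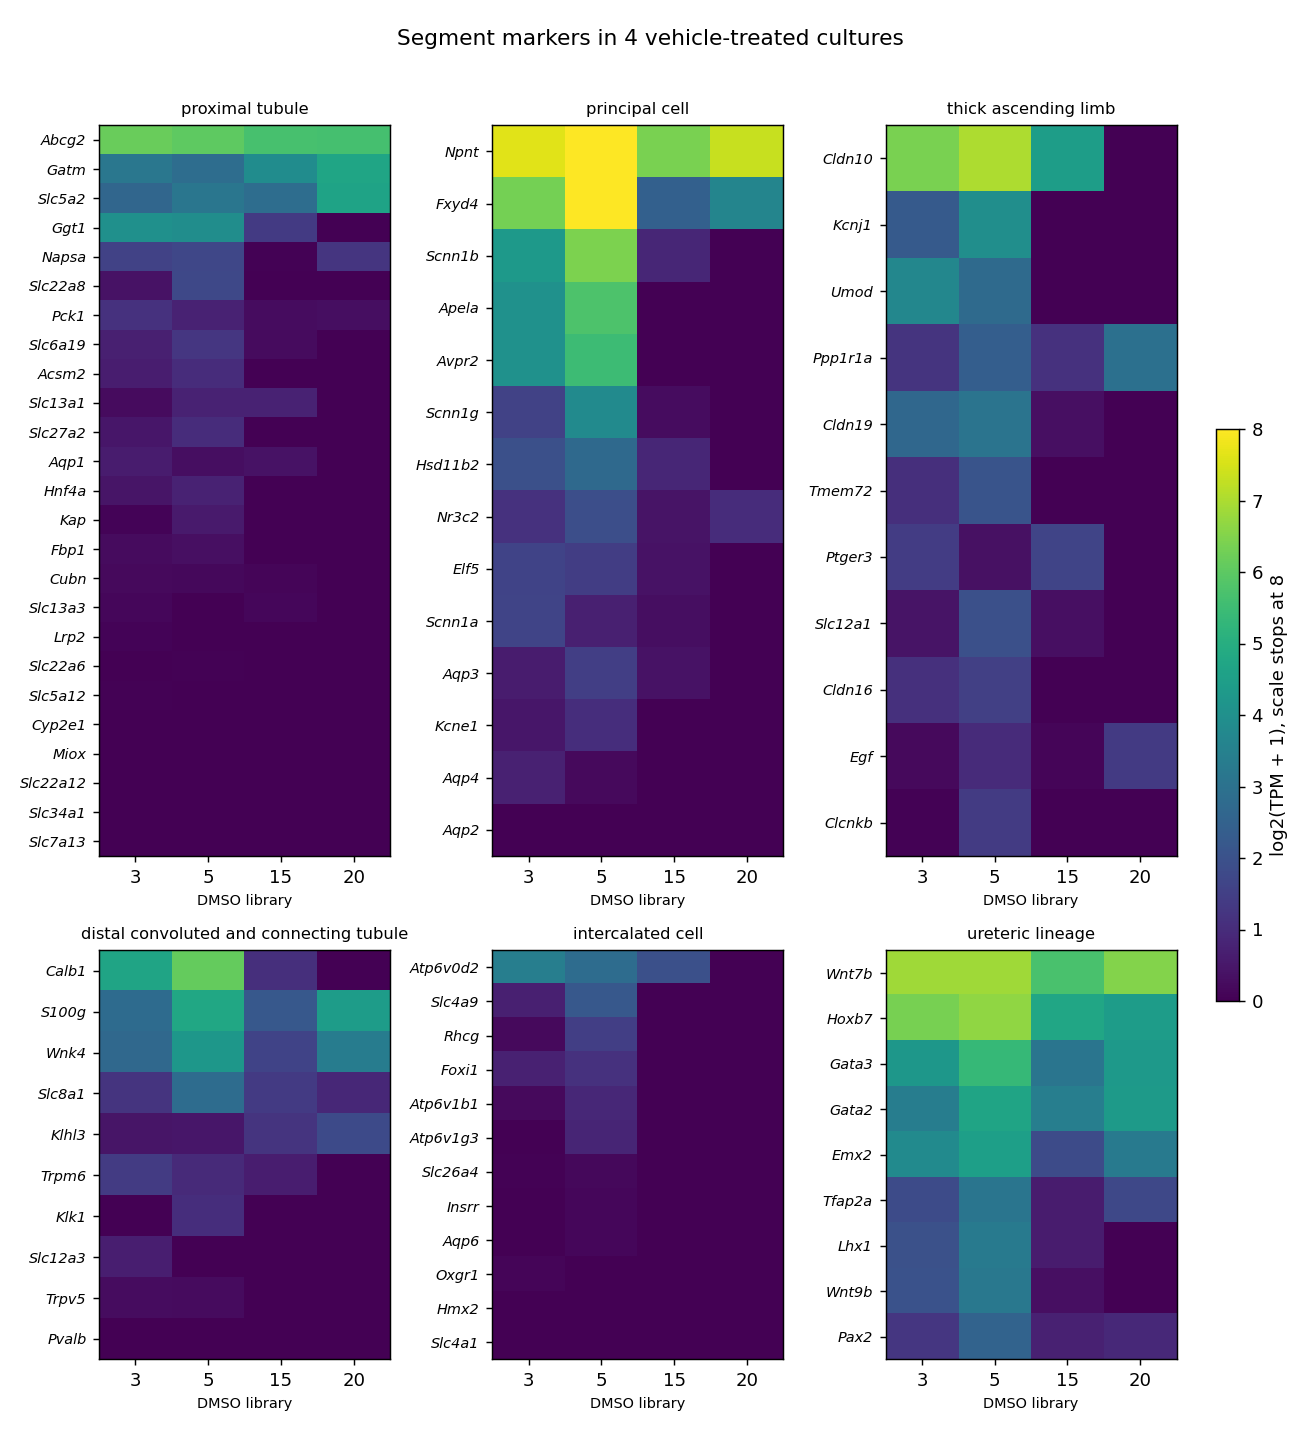
Levels of the genes of 6 segment or lineage lists, without 1 gene of the ureteric lineage, in the 4 DMSO libraries, as log2(TPM + 1) in colour (the scale stops at 8); within each panel genes are ordered by mean level. The proximal tubule and intercalated cell panels are dark below their first rows, the principal cell panel is bright for Npnt and Fxyd4 with no signal for Aqp2, and DMSO 5 is bright in most rows of the ureteric lineage panel.

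Principal cell genes were uneven. Of 14 genes, 2 reached 1 TPM in all 4 libraries, Npnt and Fxyd4, and 9 had a mean of 1 TPM or more. The median was 2.08, 4.26, 0.268 and 0 TPM. Aqp2, the vasopressin-regulated water channel of principal cells, had no count in any of the 4 libraries, which allows up to 3 reads in each. The other water channel genes, Aqp3 and Aqp4, were at 0.528, 1.81, 0.312 and 0 TPM and 0.678, 0.139, 0.0208 and 0 TPM. Of these water channels, Aqp3 in DMSO 5 was the one value above 1 TPM.

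Receptor and sodium transport genes of principal cells were higher in DMSO 3 and DMSO 5 than in DMSO 15 and DMSO 20. Avpr2, the vasopressin receptor that acts on Aqp2, was at 15.4, 43.7, 0 and 0 TPM. The subunits of the epithelial sodium channel, Scnn1a, Scnn1b and Scnn1g, were at 2.11, 0.622, 0.223 and 0 TPM, 19.2, 85.3, 0.832 and 0 TPM and 2.01, 13.3, 0.207 and 0 TPM. In DMSO 5 the beta subunit was thus far above the alpha subunit, at 28.9 against 0.622 TPM with a single transcript per gene. Fxyd4, a regulator of the sodium pump in the collecting duct, was at 78.6, 306, 4.44 and 11.5 TPM, and Hsd11b2, the enzyme that shields the mineralocorticoid receptor from glucocorticoids, was at 2.87, 5.71, 0.823 and 0 TPM. Npnt, which encodes the integrin ligand nephronectin, was the highest gene of the list at 199, 389, 82.2 and 159 TPM.

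DMSO 5 was highest for 8 of the 9 principal cell genes with a mean of 1 TPM or more, with and without median-of-ratios scaling, against 39.1% of all such genes before and 23.7% after scaling. In 8 of these 9 genes the level rose from DMSO 15 to DMSO 3 to DMSO 5. That order held for 39.4% of all genes with a mean of 1 TPM or more over these 3 libraries and for 24.5% after scaling, under which the count of principal cell genes stayed at 8. DMSO 20 had no count for 7 genes of the list that the other 3 libraries all counted. The same held for 8 of the 14 endothelial genes, and DMSO 20 counted fewer genes in all, 13243 against 17054 to 17875. The share of this measure over all genes was not computed.

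Intercalated cell genes were nearly absent. None of the 12 genes reached 1 TPM in all 4 libraries, and 1, Atp6v0d2, a subunit of the vacuolar proton pump, did so without DMSO 20, at 9.79, 6.04, 2.86 and 0 TPM. Foxi1, the transcription factor that specifies intercalated cells, was at 0.673, 1.19, 0 and 0 TPM, and the proton pump subunit Atp6v1b1 was at 0.154, 0.847, 0 and 0 TPM. Slc4a1, the chloride-bicarbonate exchanger of acid-secreting cells, had no count in any library. The summed level of the list was 11.5, 14.6, 2.86 and 0 TPM, most of it in DMSO 3 and DMSO 5.

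Genes of ureteric tips were expressed in all 4 cultures. Of 9 genes, 8 reached 1 TPM in all 4 libraries, and the median was 23.8, 41.7, 20.2 and 36.02 TPM (30.4 ± 10.1, SD, n = 4). Ret, the receptor for GDNF, was at 5.17, 16.5, 1.87 and 7.23 TPM, and its co-receptor Gfra1 was at 77.2, 106, 61.8 and 249.8 TPM. Wnt11, a ligand that Ret signalling induces at tips, was at 23.8, 24.6, 17.3 and 46.3 TPM. The transcription factors Etv4 and Etv5, which act below Ret, were at 15.4, 27.6, 20.2 and 14.3 TPM and 23.8, 41.7, 20.6 and 36.02 TPM. Spry1, a feedback inhibitor of receptor tyrosine kinases, was at 118, 240.4, 153 and 319 TPM. The co-receptor was thus above Ret in each library, also with a single transcript per gene, and 1 of the 8 genes with a mean of 1 TPM or more lay 4-fold or more apart, beside 22.7% of all genes. That gene was Ret, with DMSO 5 highest and DMSO 15 lowest.

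Of 10 genes of the ureteric lineage as a whole, 6 reached 1 TPM in all 4 libraries, against 46.3% of all genes. The median was 11.4, 23.02, 5.13 and 13.8 TPM (13.3 ± 7.42, SD, n = 4). Gata3, a transcription factor required for ureteric bud development, was at 17.9, 40.00, 7.70 and 19.2 TPM. Wnt7b, a ligand made by the collecting duct stalk, was at 114, 115, 50.6 and 90.8 TPM. Pax2, a regulator of the ureteric bud and of nephrons, was at 1.41, 4.84, 0.649 and 0.899 TPM, which was the lowest mean of the list. DMSO 5 was highest for all 10 genes, and for 8 of 10 after median-of-ratios scaling, against 39.1% and 23.7% of all genes with a mean of 1 TPM or more.

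Transcription factors of renal epithelia mostly rose from DMSO 15 to DMSO 3 to DMSO 5. Pax8, whose promoter drives the transactivator in these mice, was at 49.96, 98.8, 29.2 and 72.5 TPM. Of 29 factors, 12 reached 1 TPM in all 4 libraries and 13 without DMSO 20, against 46.3% and 51.4% of all genes. Elf3, an epithelial factor, was the highest at 219.7, 194, 30.3 and 16.2 TPM, and Tfcp2l1, a factor of the distal nephron and collecting duct, was at 4.11, 16.1, 0.656 and 3.01 TPM. Of the 24 factors with a mean of 1 TPM or more in DMSO 3, DMSO 5 and DMSO 15, 18 rose from DMSO 15 to DMSO 3 to DMSO 5, and 17 did so after scaling, against 39.4% and 24.5% of all genes. All 10 principal cell factors of a list taken from the study reached 1 TPM in all 4 libraries. Of these, Ehf, an epithelial factor, spread from 3.26 TPM in DMSO 15 to 41.4 TPM in DMSO 5, whereas Nfix, a nuclear factor I protein, was at 17.97, 23.5, 20.9 and 13.2 TPM.

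Genes of nephron progenitors and of early nephrons were low but present. Six2, the transcription factor of self-renewing progenitors, was at 2.61, 5.23, 0.170 and 5.99 TPM, with a mean of 3.50 ± 2.65 TPM (SD, n = 4). Cited1, a marker of uninduced progenitors, was at 10.6, 29.6, 2.58 and 0 TPM. Sall1, a zinc finger factor of the metanephric mesenchyme, was at 11.7, 19.3, 6.23 and 21.95 TPM, and Eya1, a cofactor of Six2, was at 1.71, 6.77, 3.33 and 21.9 TPM. Itga8, the integrin chain that receives nephronectin, was the highest gene of the list at 45.7, 56.8, 22.4 and 167 TPM. Of the 11 progenitor genes, 4 reached 1 TPM in all 4 libraries and 6 did without DMSO 20, against 46.3% and 51.4% of all genes. DMSO 20 was highest for 5 of the 8 with a mean of 1 TPM or more, before and after scaling, against 36.7% and 31.9% of all such genes.

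Six2 and Cited1 both rose from DMSO 15 to DMSO 3 to DMSO 5, and they parted in DMSO 20, where Six2 was highest and Cited1 had no count. Among early nephron genes, Jag1, a Notch ligand, was at 35.98, 40.4, 11.7 and 37.4 TPM, and Wnt4, which drives the mesenchyme to form epithelium, was at 15.3, 18.7, 14.7 and 33.9 TPM. Lhx1 was at 2.91, 8.56, 0.515 and 0 TPM, and Fgf8 was at 0.218, 1.45, 0 and 0 TPM.

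Podocyte genes were divided. Wt1, a transcription factor of podocytes, was at 7.96, 12.4, 25.3 and 41.9 TPM. Podxl, the podocyte sialoprotein, was at 5.37, 6.04, 12.3 and 3.47 TPM. Nphs1, which encodes nephrin, was at 0.0105, 0, 0.0784 and 0 TPM. Of 12 genes, 8 reached 1 TPM in all 4 libraries and 9 without DMSO 20, against 46.3% and 51.4% of all genes. Over the 4 libraries, DMSO 15 was highest for 6 of the 11 genes with a mean of 1 TPM or more and DMSO 20 for 5, against 16.7% and 36.7% of all such genes. DMSO 15 was highest for all 11 among DMSO 3, DMSO 5 and DMSO 15, against 26.4% of all genes, while nephrin was near 0 in every library.

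Genes of stroma were expressed beside the epithelial genes. Of 13 genes of fibroblasts and stroma, 9 reached 1 TPM in all 4 libraries and 11 without DMSO 20, against 46.3% and 51.4% of all genes. The median was 40.2, 20.8, 59.4 and 17.9 TPM. Its mean over libraries was 34.6 TPM, and 16.4 TPM with a single transcript per gene. Col1a1 and Col3a1, chains of fibrillar collagens, were at 178, 37.1, 732 and 60.2 TPM and 328, 80.9, 895 and 145 TPM. Pdgfrb, a receptor of stromal and mural cells, was at 127, 78.8, 163 and 313 TPM. Dcn and Lum, small proteoglycans of connective tissue, were at 40.2, 4.02, 195 and 0 TPM and 47.9, 2.43, 92.5 and 0.0158 TPM. DMSO 15 was highest for 9 of the 12 genes with a mean of 1 TPM or more, before and after scaling, against 16.7% and 26.0% of all such genes, and Pdgfrb and Tcf21 were among those highest elsewhere.

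Smooth muscle genes differed widely. Tagln, an actin-binding protein of smooth muscle, was at 123, 38.5, 1708 and 399.8 TPM, and Acta2, smooth muscle actin, was at 135, 40.7, 1212 and 258 TPM. Cnn1, which encodes calponin, was at 8.49, 0.671, 119.5 and 24.9 TPM. DMSO 15 was highest for all of these, DMSO 20 came next, and DMSO 5 was lowest. The pericyte gene Rgs5 did not follow that order, at 70.5, 59.9, 49.3 and 70.7 TPM, nor did Cspg4, at 13.4, 9.87, 9.86 and 19.8 TPM. Of 11 mural and smooth muscle genes, 6 lay 4-fold or more apart over 4 libraries and 5 over the 3 without DMSO 20, against 22.7% and 8.39% of all genes.

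Genes that rise when epithelial cells take on mesenchymal features showed the same culture on top. All 11 reached 1 TPM in all 4 libraries. Vim, which encodes vimentin, was at 201, 90.3, 995 and 451 TPM, and Fn1, fibronectin, was at 858, 463, 2311 and 1891 TPM. The transcription factors Zeb1, Zeb2 and Snai1, repressors of E-cadherin, were at 4.57, 5.99, 11.02 and 5.81 TPM, 9.77, 9.91, 21.4 and 15.5 TPM and 4.84, 5.63, 6.86 and 2.88 TPM. DMSO 15 was highest for 8 of the 11 and for 9 after scaling, against 16.7% and 26.0% of all genes with a mean of 1 TPM or more. Most of the epithelial genes were lowest in the same library, and the part of cell mixture in this was not tested.

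Endothelial genes were divided. Of 14 endothelial genes, 4 reached 1 TPM in all 4 libraries and 6 without DMSO 20, against 46.3% and 51.4% of all genes. The median was 0.760, 0.914, 0.402 and 0 TPM, and 6 genes had a mean of 1 TPM or more. The endothelial genes Pecam1, Cdh5 and Tie1 were at 0.242, 0.698, 0 and 0 TPM, 0.00993, 0.0546, 0.0212 and 0 TPM and 0, 0, 0 and 0 TPM. Plvap, a protein of endothelial fenestrae, was nevertheless at 77.5, 91.2, 103 and 434 TPM, and Emcn, an endothelial sialomucin, was at 57.7, 63.6, 22.1 and 39.6 TPM. The summed level of the list, 203.8, 224, 173.9 and 534.7 TPM, was therefore carried by genes other than Pecam1, Cdh5 and Tie1.

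Some macrophage genes were found in DMSO 15 alone. The complement genes C1qa, C1qb and C1qc and the adaptor Tyrobp were at 2.25 TPM, 4.81 TPM, 3.37 TPM and 3.40 TPM in DMSO 15 and had no count in the other 3 libraries. Ptprc, the leukocyte antigen CD45, ran in the other direction at 6.39, 22.3, 0.262 and 2.72 TPM, and Cd68, a lysosomal protein, was at 9.38, 6.35, 3.27 and 23.3 TPM. Of 12 genes, 1 reached 1 TPM in all 4 libraries and 3 without DMSO 20.

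Of 11 urothelial genes, 3 reached 1 TPM in all 4 libraries, and Upk2 and Upk3a, which encode uroplakins, were at 0.272, 0, 0 and 0 TPM and 0, 0.0492, 0.267 and 0 TPM. Of 11 squamous genes, 3 reached it, and Sprr1a, a protein of the cornified envelope, was at 196, 126, 65.6 and 56.5 TPM whereas the basal keratin Krt5 was at 0.0362, 0, 0 and 0 TPM. Of 9 adrenal cortex genes, 1 reached it: Cyp11a1, the enzyme that opens steroid synthesis, at 13.1, 7.93, 2.43 and 47.9 TPM, with the adrenal factor Nr5a1 at 0, 0, 0.0287 and 0 TPM. Neither the erythroid list nor the neural and glial list had a gene at 1 TPM in all 4 libraries, and of 5 adipocyte genes only Fabp4 did, at 1.57, 3.14, 11.5 and 6.40 TPM.

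Genes of tubule injury and dedifferentiation were among the most expressed. Of 16 genes, 15 reached 1 TPM in all 4 libraries and all 16 without DMSO 20, and the median was 207, 92.9, 173 and 249.7 TPM (181 ± 66.4, SD, n = 4). Besides Spp1 and Clu, Lcn2, the iron-carrier protein lipocalin 2, was at 3024, 1388, 395 and 284 TPM. Prom1, a membrane protein of progenitor-like tubule cells, was at 1660.1, 1698, 140.0 and 285 TPM, and Cd24a was at 989, 807, 119 and 228 TPM. Havcr1, which encodes kidney injury molecule 1 and is induced in injured proximal tubules, was at 13.1, 7.39, 3.17 and 0 TPM. Cdkn1a, the cell cycle inhibitor p21, was at 300.3, 322, 315 and 327 TPM.

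DMSO 3 was highest for 7 of the 16 genes, and for 8 after scaling, against 7.54% of all genes with a mean of 1 TPM or more before and 18.4% after scaling. DMSO 15 was highest for 4, DMSO 20 for 3 and DMSO 5 for 2, and for 5, 2 and 1 after scaling. Clu, Lcn2, Prom1 and Cd24a were high in DMSO 3 and DMSO 5. Vim, Anxa2 and Cryab, genes of the cytoskeleton, membrane repair and protein folding, were highest in DMSO 15, and Cdkn1a was nearly level.

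Receptors for the growth factors of the medium were expressed in all cultures, with 11 of 13 at 1 TPM or more in all 4 libraries. Met, the receptor for hepatocyte growth factor, was at 17.4, 21.6, 4.58 and 2.31 TPM, and Egfr, the receptor for epidermal growth factor, was at 21.00, 15.05, 56.3 and 52.2 TPM. Fgfr1, the fibroblast growth factor receptor of mesenchyme, was at 98.3, 153, 134 and 266 TPM, and Fgfr2 was at 30.1, 108, 4.74 and 23.7 TPM. Egfr was thus highest in DMSO 15 and DMSO 20, whereas Met and Fgfr2 were lowest in one or the other of these and highest in DMSO 5, other than Met after scaling, which was highest in DMSO 3.

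Most genes of cystic kidney disease were expressed in every culture. Pkd2, the gene that can be inactivated in these mice, was at 25.01, 24.9, 24.4 and 37.1 TPM (27.8 ± 6.14, SD, n = 4) and ranked 5162 of 24063 genes by mean level. Its only RefSeq transcript in the files lies on chromosome 5 from 104453982 to 104505819 (GRCm38.p6). Pkd1, the gene of polycystin-1, was at 4.32, 8.78, 8.26 and 10.4 TPM. The highest were Dnajb11, Prkcsh and Ganab, which act in protein folding and glycan trimming in the endoplasmic reticulum, at 191, 217, 195 and 269.7 TPM, 251, 204, 205 and 189 TPM and 144, 128, 112 and 94.3 TPM. Pkhd1, the gene of recessive polycystic kidney disease, was at 2.52, 4.88, 0.257 and 0.183 TPM. Of 18 genes, 15 reached 1 TPM in all 4 libraries, and 4 lay 4-fold or more apart, which as a share is 22.2% beside 22.7% of all genes.

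Basement membrane and integrin genes were expressed in each library, with 22 of 25 at 1 TPM or more in all 4. Itgb1, the integrin beta chain shared by most matrix receptors, was at 533, 318, 767 and 684 TPM. Col4a1, a chain of the widespread collagen IV, was at 111, 70.5, 109 and 114 TPM, whereas Col4a4, a chain of the mature glomerular and distal tubule membrane, was at 0.259, 0.617, 0.815 and 0.214 TPM. Lamb3, a chain of an epithelial laminin, was at 36.02, 34.5, 15.7 and 136 TPM and was highest in DMSO 20.

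Genes of DNA replication and mitosis were expressed in every culture. All 23 genes of proliferation reached 1 TPM in all 4 libraries, with a median of 32.3, 41.9, 40.4 and 17.2 TPM (32.96 ± 11.3, SD, n = 4). Pcna, the replication clamp, was at 85.5, 113, 79.6 and 74.98 TPM, and Ccnb1, a mitotic cyclin, was at 32.3, 43.1, 48.9 and 15.96 TPM. Birc5, which encodes survivin, was at 59.1, 84.2, 90.8 and 9.84 TPM. DMSO 20 was lowest for 16 of the 23 genes, and for 18 after scaling, against, before scaling, 33.96% of all genes with a mean of 1 TPM or more. There were 3 genes 4-fold or more apart, and 0 without DMSO 20, against 22.7% and 8.39% of all genes.

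Hox genes set position along the body axis. Of 39 Hox genes, 23 reached 1 TPM in all 4 libraries and 25 without DMSO 20, against 46.3% and 51.4% of all genes. Hoxa10 and Hoxd8 were the highest, at 103, 155, 171 and 255 TPM and 123, 182, 81.5 and 95.8 TPM. Hoxd11 and Hoxa11, which act in kidney formation, were at 22.1, 32.2, 17.3 and 83.4 TPM and 17.6, 14.5, 24.1 and 10.5 TPM. Hoxa13, Hoxb13 and Hoxc12 had no count in any library. Hoxb7, a gene of the ureteric lineage, was at 81.03, 102, 25.3 and 20.5 TPM and was higher in DMSO 3 and DMSO 5 than in DMSO 15 and DMSO 20.

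Genes of innate defence were present in all cultures, with 10 of 12 at 1 TPM or more in all 4 libraries and 12 without DMSO 20. Ccl20, a chemokine of epithelial cells, was at 182, 361, 33.6 and 759 TPM, and Cxcl5, another chemokine, was at 64.5, 123, 11.1 and 41.8 TPM. Il33, an alarmin, was at 128, 125, 285 and 90.5 TPM. Ccl20 was highest in DMSO 20 and lowest in DMSO 15, and Il33 was highest in DMSO 15. Interferon-response genes were low, with a median of 1.44, 1.82, 0.895 and 0 TPM, and Mx1 had no count in any library. Immediate early genes, which rise within minutes of a stimulus or of handling, had a median of 21.00, 25.1, 37.5 and 27.1 TPM, and Fos was at 9.38, 8.52, 23.7 and 19.8 TPM.

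Over all genes with a mean of 1 TPM or more, the median ratio of the highest to the lowest library was 2.26, and it was 1.63 in the 3 libraries other than DMSO 20. Of the 3109 genes that lay 4-fold or more apart, 1665 were lowest in DMSO 20 and 783 in DMSO 15, and 1486 were highest in DMSO 5. Without DMSO 20, 1156 of 13773 genes lay that far apart.

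**Figure D3:**
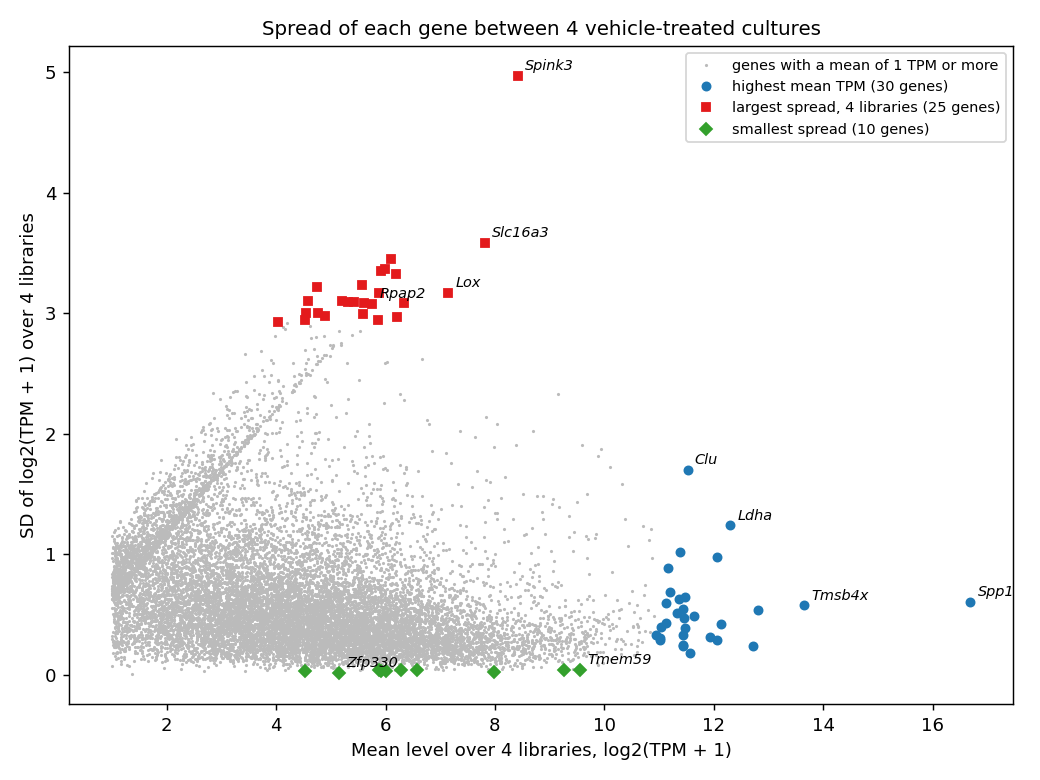
Standard deviation of log2(TPM + 1) over the 4 libraries against the mean level, both on linear axes, for each gene with a mean of 1 TPM or more (grey) and for the genes with the highest level (circles), the largest spread (squares) and the smallest spread (diamonds). Spink3 has the largest spread, at 4.97, Spp1 the highest level, and the 10 steadiest genes lie along the lower edge.

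The 25 genes with the largest spread were picked by the standard deviation of log2(TPM + 1), which was between 2.93 and 4.97. DMSO 20 had no count for 18 of them. DMSO 5 was highest for 16, DMSO 15 for 6, DMSO 3 for 2 and DMSO 20 for 1, and after scaling Rpap2 passed from DMSO 5 to DMSO 3. Spink3, which RefSeq now names Spink1 and which encodes a trypsin inhibitor, had the largest spread, at 537, 823, 2.35 and 0 TPM. Cldn8, a claudin of the distal nephron and collecting duct, was at 91.4, 223, 1.58 and 4.98 TPM. Sct, which encodes secretin, was at 26.9, 194, 0.486 and 8.49 TPM.

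The genes that were high in DMSO 3 and DMSO 5 included several of tubule epithelia. Tmem27, now Cltrn, which encodes collectrin, was at 30.1, 61.7, 0.218 and 0 TPM, and Kcnj16, a potassium channel subunit of distal tubules, was at 20.4, 67.5, 0.548 and 0 TPM. Syne4, which links the nucleus to the cytoskeleton in epithelial cells, was at 54.8, 192, 5.19 and 0 TPM, and Adh1, an alcohol dehydrogenase, was at 73.4, 114, 1.66 and 1.03 TPM. Wfdc15b and Wfdc18, small secreted proteins of the whey acidic protein family, were at 50.9, 131, 3.41 and 0 TPM and 90.4, 72.1, 5.63 and 0 TPM. Gyltl1b, now Large2, a glycosyltransferase of dystroglycan, was at 37.01, 115, 3.02 and 0 TPM. In each of these, DMSO 15 and DMSO 20 both lay below DMSO 3 and DMSO 5.

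In the 6 genes highest in DMSO 15, DMSO 5 lay below DMSO 3, and DMSO 20 was low as well. Slc16a3, the lactate exporter MCT4, was at 261, 9.72, 623 and 2.53 TPM, and Ndufa4l2, a mitochondrial protein induced by low oxygen, was at 56.98, 4.37, 207 and 0 TPM. Lox, which crosslinks collagen, was at 32.8, 2.28, 518 and 7.86 TPM, and Tnfrsf9, a receptor of the tumour necrosis factor family, was at 45.7, 11.6, 231 and 0 TPM. With Dcn and Lum they were next highest in DMSO 3. Prl2c2, which encodes proliferin, was the only gene of the 25 that was highest in DMSO 20, at 2.10, 4.75, 5.22 and 282 TPM; it belongs to a family of near-identical copies between which reads may be split.

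Rpap2 and Glmn, neighbours on chromosome 5, were in the set because of DMSO 20 alone. Rpap2, a phosphatase of RNA polymerase II, was at 66.6, 80.2, 64.9 and 0 TPM, and Glmn, which encodes glomulin, was at 55.5, 90.03, 43.3 and 0 TPM. Their ratio of highest to lowest without DMSO 20 was 1.23 and 2.05.

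Among DMSO 3, DMSO 5 and DMSO 15 alone, 15 genes had the largest spread, of which 9 were among the 25 above. DMSO 5 was highest for 10 and DMSO 15 for 5. Those added were Fxyd4, Apela, Cnn1, Actg2, Gsdmc2 and Eif2s3y. Apela, a hormone that binds the apelin receptor, was at 15.5, 53.8, 0 and 0 TPM, and Gsdmc2, a gasdermin, was at 10.1, 57.7, 0 and 0 TPM. Actg2, smooth muscle gamma actin, was at 16.9, 0.393, 158 and 6.19 TPM. Lipf, which encodes gastric lipase, was in both sets through DMSO 5 alone, at 0.263, 61.3, 0 and 0 TPM.

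Y-linked genes also set a library apart. Eif2s3y, a translation factor gene of the Y chromosome, was at 0, 0, 38.9 and 0 TPM, and the Y-linked genes Ddx3y, Uty and Kdm5d were at 24.6 TPM, 8.25 TPM and 4.29 TPM in DMSO 15 and at 0 elsewhere, other than Uty at 0.0439 TPM in DMSO 20. Xist, which is transcribed from the inactive X chromosome of females, was at 11.4, 54.9, 0 and 23.7 TPM; the library kit does not mark strand, so reads of its antisense partner Tsix cannot be told apart where the genes overlap. DMSO 15, the culture with the high smooth muscle and low epithelial genes, was thus also the only culture with clear Y-linked transcripts, and these differences cannot be told apart here.

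**Figure D4:**
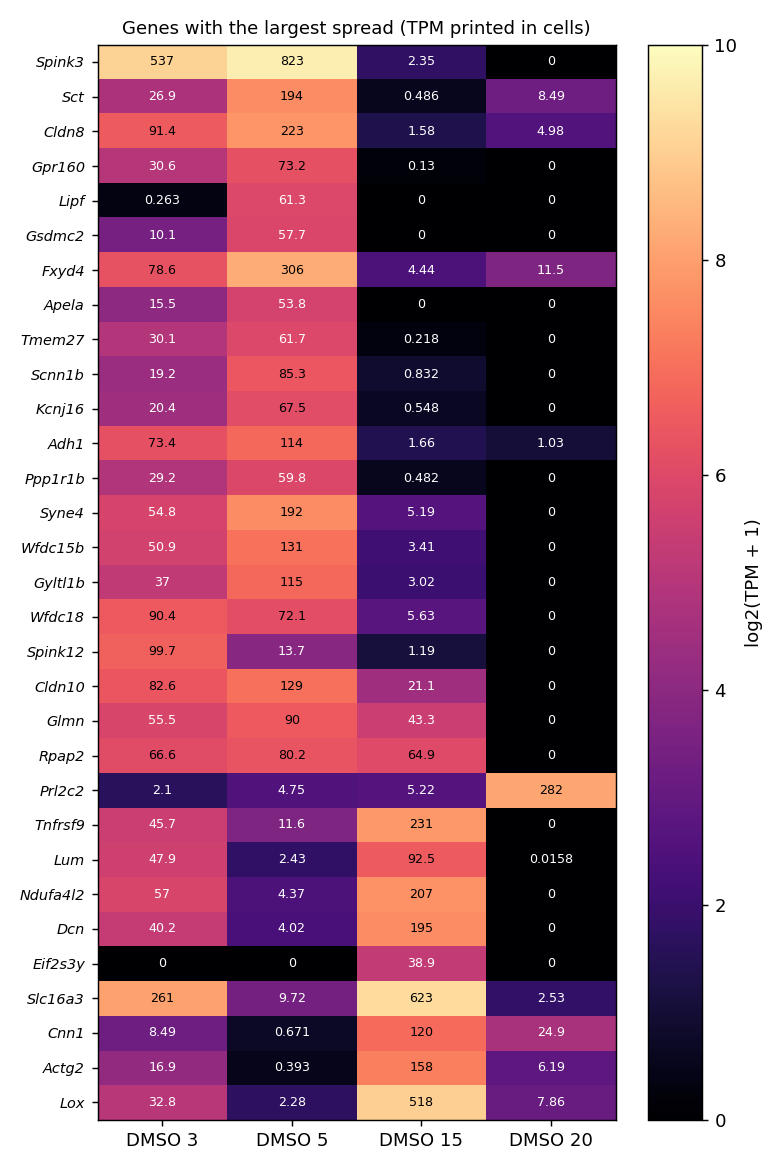
Levels of the 31 genes with the largest spread over 4 libraries or over the 3 other than DMSO 20, with the TPM of each gene and library printed in its cell and log2(TPM + 1) in colour; rows run from genes higher in DMSO 5 to genes higher in DMSO 15. The upper rows are bright in DMSO 3 and DMSO 5, the lower rows in DMSO 15, and 18 of the 25 genes of the first set are at 0 in DMSO 20.

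Hypoxia and glycolysis genes shared their highest library. All 17 were highest in DMSO 15, before and after scaling, against 16.7% of all genes with a mean of 1 TPM or more before and 26.0% after scaling. Among DMSO 15, DMSO 3 and DMSO 5, 16 of the 17 fell in that order and 17 did after scaling, against 13.0% and 25.1% of all genes. The lowest library was DMSO 5 for 9 genes and DMSO 20 for 8, before and after scaling. The median was 102, 37.5, 160.3 and 40.5 TPM. The oxygen level of the wells was not given in the sources used here, and its part in this order was not tested.

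The list spans glycolysis from sugar uptake to lactate. Slc2a1, the glucose transporter, was at 93.5, 37.5, 143 and 64.9 TPM, and Hk2, a hexokinase, was at 12.8, 12.6, 14.3 and 3.68 TPM. Aldoa, an aldolase, was at 3057, 1029.8, 5066 and 1538 TPM, and Pgk1, phosphoglycerate kinase, was at 247, 64.5, 408 and 40.5 TPM. Gapdh, which is often used as a reference gene, was at 1810.2, 669.8, 4117 and 783 TPM, has near-identical copies in the genome, and differed between these cultures, on the TPM + 1 scale, by 6.14-fold. With Ldha and Slc16a3 above, glycolytic genes were high in DMSO 15 and DMSO 3 and low in DMSO 5 and DMSO 20, and Hk2 was nearly level outside DMSO 20.

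Some genes that low oxygen induces outside glycolysis spread more widely still. Bnip3, a mitophagy receptor, was at 234, 50.99, 736 and 30.2 TPM, and Egln3, the prolyl hydroxylase that marks hypoxia-inducible factor for decay, was at 48.8, 15.3, 64.4 and 4.28 TPM. Ankrd37 was at 64.6, 11.6, 99.6 and 13.9 TPM, and Adm, the vasodilator adrenomedullin, was at 12.5, 1.87, 157 and 7.13 TPM. Vegfa, the endothelial growth factor, was at 467, 413, 1121 and 349 TPM, and Car9, a carbonic anhydrase, was at 2.00, 0.847, 5.79 and 0 TPM. Of the 17 genes, 11 lay 4-fold or more apart, and 10 did without DMSO 20, against 22.7% and 8.39% of all genes.

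Hypoxia-inducible factor binds a short core in its response elements. Only the form ACGTG was searched, in the 250 bases before each RefSeq start, and other forms such as GCGTG were not. Both strands were searched, so that a site reads ACGTG or CACGT. Of the 16 genes of the list with such a window, 11 held the letters in at least 1 window, beside 25.02% of genes with a mean of 1 TPM or more and 18.5% of all genes with a window. Genes with several windows have more chances of a match, and the number of windows was not adjusted for. Aldoa, Pkm and Vegfa matched in a later window and not in their first. A match is a description of the sequence and not a site of binding. The windows of 4 genes that moved together across these cultures are shown because they hold the letters at differing places, which are in capitals; where both strands match, the overlapping letters form CACGTG. Sequences are from RefSeq (GRCm38.p6), 5′ to 3′ on the strand of the gene, and end just before the start.

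Ldha (chr7:46845554-46845803, plus strand): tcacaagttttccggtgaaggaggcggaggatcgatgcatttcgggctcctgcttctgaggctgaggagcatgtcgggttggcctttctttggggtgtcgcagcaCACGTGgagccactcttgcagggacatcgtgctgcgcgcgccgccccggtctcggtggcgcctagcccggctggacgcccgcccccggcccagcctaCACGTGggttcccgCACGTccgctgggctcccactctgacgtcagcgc
Pgk1 (chrX:106186850-106187099, plus strand): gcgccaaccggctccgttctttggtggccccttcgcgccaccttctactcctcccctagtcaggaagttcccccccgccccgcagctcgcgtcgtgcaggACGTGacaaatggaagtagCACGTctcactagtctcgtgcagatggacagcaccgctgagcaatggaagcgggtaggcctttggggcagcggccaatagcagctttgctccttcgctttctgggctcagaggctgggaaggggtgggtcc
Bnip3 (chr7:138909507-138909756, minus strand): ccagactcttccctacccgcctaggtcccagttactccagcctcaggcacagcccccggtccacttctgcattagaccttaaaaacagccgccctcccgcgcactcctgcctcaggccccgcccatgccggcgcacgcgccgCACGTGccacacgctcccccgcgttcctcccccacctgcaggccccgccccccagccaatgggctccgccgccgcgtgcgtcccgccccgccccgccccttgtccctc
Ankrd37 (chr8:45999851-46000100, minus strand): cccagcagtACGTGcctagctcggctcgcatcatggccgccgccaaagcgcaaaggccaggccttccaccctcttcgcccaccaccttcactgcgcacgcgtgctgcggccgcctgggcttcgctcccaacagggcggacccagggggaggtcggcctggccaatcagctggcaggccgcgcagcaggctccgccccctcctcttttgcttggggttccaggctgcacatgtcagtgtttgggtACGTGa

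The Ldha window shown held the letters at 3 separate places, of which 2 read the same on both strands, whereas another Ldha window held none. The windows of Pgk1 and Ankrd37 held them at 2 places each. Bnip3 held them at a single place that reads the same on both strands. Eno1, Gapdh, Pdk1, Pfkl and Adm held none in their windows, although their levels were ordered in the same way across DMSO 15, DMSO 3 and DMSO 5. No match says only that ACGTG and CACGT are not in these windows. It does not say that the core is absent, since GCGTG was not searched.

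**Figure D5:**
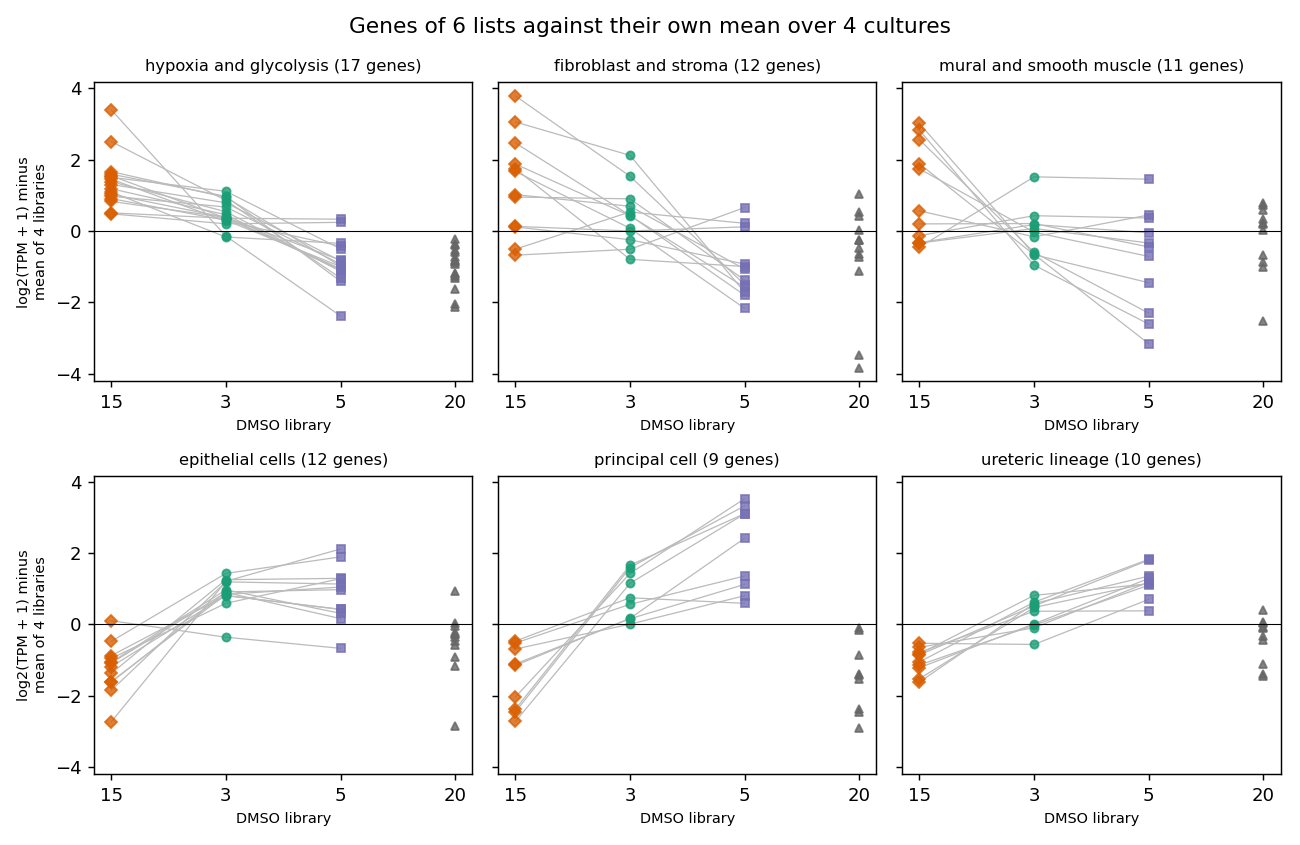
Each gene's log2(TPM + 1) minus its own mean over the 4 libraries, on a linear axis, for genes with a mean of 1 TPM or more in 6 lists; points are genes and grey lines join the values of a gene in DMSO 15, DMSO 3 and DMSO 5, an order chosen after the values were seen. The 17 hypoxia and glycolysis genes all lie highest in DMSO 15, the ureteric lineage genes lie highest in DMSO 5 (8 of 10 after scaling), and DMSO 20 follows neither order.

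At the other end, 10 genes with the smallest coefficient of variation among the 6244 genes with a mean of 20 TPM or more differed by 1.26% to 3.15%. Zfp330, a zinc finger protein, was at 34.04, 34.6, 35.03 and 34.2 TPM. Tmem59, a membrane protein of the Golgi, was at 748, 726, 775 and 769.7 TPM, and Eif1, a translation initiation factor, was at 622, 593, 617 and 632 TPM. Hn1, now Jpt1, was at 257, 248, 251 and 256 TPM, and Papola, a poly-A polymerase, was at 60.95, 60.9, 58.7 and 58.4 TPM. Mrpl3, a mitochondrial ribosomal protein, was at 63.8, 65.3, 61.8 and 63.5 TPM. Nrbp1, Tmem5 (now Rxylt1) and Pbxip1 were in the set too, as was Mir719, a microRNA precursor whose reads may come from a gene that overlaps it. These genes were steady on the TPM scale of these 4 libraries, in which the typical gene itself differed between libraries as given above. After median-of-ratios scaling the SD of Zfp330 went from 0.433 to 4.38 TPM, about a mean of 34.2 TPM. That of Tmem59 went from 22.4 to 105 TPM, about a mean of 749 TPM.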

How the data were processed

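RNA was measured in 8 cultures, and the 4 that received DMSO were analysed here. The libraries were made with the SMART-Seq v4 kit after poly-A selection and run on 2 flow cell lanes, and which library went on which lane is not given in the sources used here. The submitters' notes name STAR, featureCounts, DESeq2 and the build mm10 (GRCm38), with no version. Each deposited table lists RefSeq transcripts, with the count of reads on each as whole numbers. Its FPKM column, also deposited, corrects this count for length and depth, and its TPM column, made by the authors from FPKM, has the same sum in every library. Settings of the counting of reads shared by isoforms are not given in the sources used here.

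TPM and counts were summed by gene symbol, and TPM was used throughout. Groups came from the sample titles. As a check for a library deposited more than once, chi-square per degree of freedom was 487 to 1022 between pairs over genes with 50 counts or more. This covers counting error only, and each library was counted as 1 sample. The comparison of libraries within the group carries no p. Dixon's criterion was used only to pick out libraries that stand apart. Spread is the SD over libraries, of TPM or of log2(TPM + 1). A gene was called apart when the ratio of its highest to lowest TPM, each plus 1, was at least 4 and its mean was at least 1 TPM.

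The genes named were the 30 with the highest mean TPM, the 25 with the largest SD of log2(TPM + 1), the 15 with the largest SD without DMSO 20, the 10 with the smallest coefficient of variation among means of 20 TPM or more, and members of 35 lists. Members and lists were chosen with earlier results of these data known. List genes were matched by symbol or RefSeq synonym, all of them. Only the 4-fold call was tested on simulated counts, with a pseudocount and a level threshold other than those used here. The simulated counts held counting error and no library with missed genes, and the other steps were not simulated. Alternatives were 1 transcript per gene, median-of-ratios scaling, other thresholds and pseudocounts, counts, and leaving out each library. Values were computed with Python 3.11.15, numpy 2.4.6 and pandas 2.3.3 and plotted with matplotlib 3.10.9. Coordinates and promoters are from RefSeq on GRCm38.p6. The libraries treated with doxycycline were not used here. Depth was 63922677 to 94517663 summed transcript counts per library. A few list members are counted in their lists but not reported here by name.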

Additional observations from a re-analysis of the deposited data

Results flagged for a closer look

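For each measure of 4 values the gap between the library farthest out and its nearest neighbour was divided by the range over the 4 libraries, on the log2(TPM + 1) scale. Results past Dixon's critical value for 4 samples are given here. Of 112 measures tested 13 were past it. By chance the rule marks about 1 in 20 measures that were not picked by their values, and since many of these genes were picked by their level or spread in the same libraries, the 13 cannot be read against that rate.

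DMSO 20 was the library apart for 4 of them. Rpap2, with a gap of 0.953 of the range, and Glmn, with 0.841, had no count there. The distal convoluted and connecting tubule list, with 0.866, had a lower median there, at 0.00572 TPM against 0.827 TPM or more elsewhere. Prl2c2, with 0.846, was higher there.

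DMSO 15 was apart for another 4. The macrophage and leukocyte list, with 0.963, had a higher median there, at 0.0323, 0.0456, 2.39 and 0 TPM. Eif2s3y and the sex-linked list, with 1 each, were at 0 in the other libraries, the list by its median. The innate defence and chemokines list, with 0.898, had a lower median there, at 41.1, 45.7, 10.03 and 39.3 TPM.

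DMSO 5 was apart, and higher, for Lipf, with 0.943, for the intercalated cell list, with 0.854 and a median of 0.0553, 0.444, 0 and 0 TPM, and for Mir719, with 0.861, whose levels of 75.8, 79.9, 75.1 and 75.4 TPM differ little and were highest in DMSO 3 after scaling. DMSO 3 was apart for Rps27l, with 0.904, a homologue of a ribosomal protein, at 1485, 2317, 2219.9 and 2309 TPM, and for the adipocyte list, with 1, whose median was 0.193, 0, 0 and 0 TPM. The causes were not tested.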

How the results depend on the processing

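The number of genes at 1 TPM or more in every library went from 11147 to 10975 with a single transcript per gene, 11153 with median-of-ratios scaling, 12488 at 0.1 TPM, 8441 at 5 TPM, 12333 at 10 counts or more, and 11189 to 12379 when a library was left out. The number of genes 4-fold or more apart, 3109, was 1855 when a mean of at least 5 TPM was required, 4145 with a pseudocount of 0.1, 2803 with a single transcript per gene, and 1156 to 2901 when a library was left out. The lowest of these, 1156, came without DMSO 20. The share of TPM in the 10 highest genes was 15.8%. With a single transcript per gene, in which shared reads are not added up, it was 8.53% of the TPM summed over those single transcripts, and 4 of the 10 genes were the same. When a library was left out, the share of all TPM was 13.8% to 17.1%. The medians of the 8 lists tested this way moved by less than 1 SD under scaling and with a single transcript per gene, though the fibroblast and stroma median fell from 34.6 to 16.4 TPM with a single transcript per gene. Leaving out 1 of 4 libraries cannot move a mean by 1 SD, so those values are given by size. DMSO 5 moved 4 medians by over 1.5 times: without it the principal cell median went from 1.65 to 0.782 TPM, the thick ascending limb median from 1.14 to 0.452 TPM, the proximal tubule median from 0.170 to 0.0625 TPM and the intercalated cell median from 0.1248 to 0.0184 TPM. Of the mean levels of 71 named genes, 19 moved by more than 1 SD and 38 by over 1.5 times with a single transcript per gene, and 0 moved by either measure under scaling. Leaving out a library moved 29 of the 71 means by over 1.5 times, 17 without DMSO 5, 9 without DMSO 15, 2 without DMSO 3 and 1 without DMSO 20. Among them, Lipf went from 15.4 to 0.0878 TPM without DMSO 5, Lox from 140.3 to 14.3 TPM and Eif2s3y from 9.73 to 0 TPM without DMSO 15, and Prl2c2 from 73.4 to 4.02 TPM without DMSO 20.

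Without DMSO 20, an alternative chosen after seeing the data, the count of members at 1 TPM or more in every library moved by over 1.5 times in 6 of 35 lists. It went from 1 to 2 in the thick ascending limb list, 2 to 4 in the distal convoluted and connecting tubule list, 0 to 1 in the intercalated cell and in the neural and glial list, 1 to 3 in the macrophage list and 3 to 6 in the interferon list. Orders of libraries within lists were also read after median-of-ratios scaling, likewise added after seeing the data. It turned the order of DMSO 3 and DMSO 5 in several lists, among them the epithelial list, whose medians became 369 and 308 TPM. The innate defence medians became 45.1 and 39.5 TPM, the immediate early medians 23.0 and 21.7 TPM and the interferon medians 1.58 and 1.57 TPM. In the proliferation list the highest median passed from DMSO 5, then at 36.2 TPM, to DMSO 15 at 44.5 TPM. No paired analysis was possible because the report holds a single group. Depth limits genes at a few counts, and a gene without a count in DMSO 20 may have been missed there.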

Other observations

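In all, 58 genes had no count in DMSO 20 and 10 TPM or more in each of the other 3 libraries, and 35 of these were within 2-fold of each other in those 3. The same measure gave 0 genes for DMSO 3, 0 for DMSO 5 and 1 for DMSO 15. After Rpap2 and Glmn, those with the highest minimum over the 3 libraries were Pfkfb3, an enzyme that speeds glycolysis, at 37.1, 43.8 and 47.4 TPM in DMSO 3, DMSO 5 and DMSO 15, Pde1a, a cyclic nucleotide phosphodiesterase, at 33.8, 46.02 and 45.7 TPM, and Nadk2, the mitochondrial NAD kinase, at 33.1, 35.7 and 38.96 TPM. Pfkfb3 had 9388, 8065 and 11241 counts in those libraries. These genes were chosen after their values were seen, and the cause was not tested. DMSO 20 also had fewer genes with 1 to 10 counts, 641 against 1560 to 1958 in the others.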
